A study of Homo sapiens with 14 samples.

Results

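Of the 14865 ChIP-seq regions of the NF-κB subunits in L1236 cells, 34 had a gene of the Notch pathway, LEF1 or GATA3 as their closest gene or closest transcription start site (TSS). The genes looked up were NOTCH1 (ENSG00000148400), NOTCH2 (ENSG00000134250), RBPJ (ENSG00000168214), HES1 (ENSG00000114315), HEY1 (ENSG00000164683), LEF1 (ENSG00000138795) and GATA3 (ENSG00000107485), and each of these 7 genes had at least 1 region. L1236 is an established Hodgkin lymphoma cell line, analysed without a treatment that the labels name. ChIP was carried out for p50, p52, RelA (also called p65) and RelB, each in 2 replicates, beside 6 libraries of input DNA. The p52 replicates were made with different antibodies, a mouse monoclonal and a rabbit polyclonal, whereas p50, RelA and RelB had a single antibody each. Since each subunit had its own antibodies, a difference between subunits and a difference between antibodies cannot be told apart.

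Notch receptors are cut when a ligand of the Jagged or Delta family binds, and the freed intracellular domain enters the nucleus and joins RBPJ, the DNA-binding effector of the pathway, to switch on targets such as the repressors HES1 and HEY1. LEF1 is the DNA-binding partner of β-catenin in Wnt signaling. GATA3 is a zinc-finger factor of T cell development that is also found in Hodgkin lymphoma cells.

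Promoter letters are shown for 3 genes with a region over or next to their TSS, because both NF-κB and RBPJ bind short DNA words that contain a run of G followed by A. The sequences are from RefSeq and hold the 250 bases before a start site in GRCh38.p14, whereas the positions of all ChIP-seq regions are in hg18, so the letters were not lined up with the region borders. Capitals mark matches, on either strand, to the κB consensus of length 10, to its form of length 11, or to the RBPJ word GTGGGAA, and these 3 words were chosen after the sequences were seen. The RBPJ promoter is chr4:26319496-26319745 (plus strand, start 2 of the 5 RefSeq starts of RBPJ), that of HES1 is chr3:194135898-194136147 (plus strand) and that of LEF1 is chr4:108166302-108166551 (minus strand).
RBPJ: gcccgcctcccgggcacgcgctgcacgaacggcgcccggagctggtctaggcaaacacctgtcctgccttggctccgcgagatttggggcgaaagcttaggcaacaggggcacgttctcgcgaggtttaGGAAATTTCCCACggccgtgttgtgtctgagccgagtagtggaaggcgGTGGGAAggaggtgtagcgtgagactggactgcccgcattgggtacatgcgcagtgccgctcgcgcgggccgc
HES1: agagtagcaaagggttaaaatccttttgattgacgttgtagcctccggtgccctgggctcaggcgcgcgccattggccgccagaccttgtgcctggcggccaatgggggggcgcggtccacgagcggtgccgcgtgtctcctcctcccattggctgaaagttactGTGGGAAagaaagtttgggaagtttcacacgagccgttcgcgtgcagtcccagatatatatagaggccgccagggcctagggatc
LEF1: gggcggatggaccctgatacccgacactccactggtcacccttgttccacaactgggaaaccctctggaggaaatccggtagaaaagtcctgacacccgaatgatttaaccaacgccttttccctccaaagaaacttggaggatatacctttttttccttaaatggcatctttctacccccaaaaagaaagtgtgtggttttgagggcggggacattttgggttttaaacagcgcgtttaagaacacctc
In the RBPJ promoter the κB word of length 11 and an RBPJ word on the minus strand overlap in a single run of capitals, and a further RBPJ word follows closer to the start. The HES1 promoter holds a single RBPJ word and no κB word, and the window before the RefSeq start of LEF1 holds none of the 3 words. Whether these RefSeq starts are the starts used for the ChIP-seq regions was not checked, so the windows may lie elsewhere than the regions. Of 35114 RefSeq promoters, 5.21% held the κB word of length 10, 9.92% the word of length 11 and 5.43% the RBPJ word within the same 250 bases. Of the other members, NOTCH2 had a κB word of length 10, and 1 of the 6 RefSeq starts of GATA3 had a word of length 11. NOTCH1 and the other 4 starts of RBPJ had no match. HEY1 had no entry.

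p52 was the subunit called most often over the 34 regions, through GATA3 and RBPJ, and RelA was not called in any of them. In the 10 regions of the other 5 genes p50 was called in 9 and p52 in 6. p52 was called in 29 of the 34 regions, against 73.3% of all regions. p50 was called in 23, against 73.8% of all regions, and RelB in 8, against 26.8%. RelA was called in 0 of the 34, against 3.31% of all regions. A call here is the study's own, for which the study states a limit of 0.05 on the irreproducible discovery rate (IDR) between the replicates and on the false discovery rate (FDR) of the peak caller. No region in the table had an IDR over 0.01, so a region not called here may have had an IDR above that value.

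p50 and p52 shared 18 of the 34 regions, against 51.4% of all regions. p52 without p50 was called in 11, against 21.9%, and p50 without p52 in 5, against 22.4%. The most frequent combination was p50 with p52 and no other subunit, found in 13 regions (31.8% of all regions), followed by p52 alone in 9 (19.8% of all) and by p50, p52 and RelB together in 5 (17.1% of all). RelB alone was called in 0 of the 34, against 3.83% of all regions. Where p50 and p52 were both called, their summits lay within 250 bp of each other in 18 of 18 regions. Both summits belong to the same region by definition, and the share over all regions called for both was not counted.

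Only 3 of the 34 regions overlapped or lay within 1 kb of the TSS of a member, against 20.2% of the regions with an assigned TSS. These were at RBPJ, HEY1 and LEF1, and each overlapped the start. Among all 2989 regions within 1 kb of a TSS, 93.0% were called for p50, 55.1% for p52 and 25.6% for RelB. p50 and p52 were called in 3 of the 3 member regions, and RelB in 2 of them.

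The RelA reads in the member regions were few, with a median of 13.1 per kb of region. This is not particular to these genes, since the median over all 14865 regions was 15.6 per kb. In the 34 regions the RelA reads ranged from 2 to 45 per region, and from 3.76 to 25.6 per kb. Of all 492 regions called for RelA, 95% had more than 22.3 reads per kb, and the median was 38.4. Only 2 of the 34 member regions, NOTCH2 with 14 reads in 547 bp and the fourth GATA3 region with 20 reads in 821 bp, were above 22.3 reads per kb, which 20.3% of all regions not called for RelA also were. Input reads per region were not used here, so the reads do not show how far each value stands above background.

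**Figure D1:**
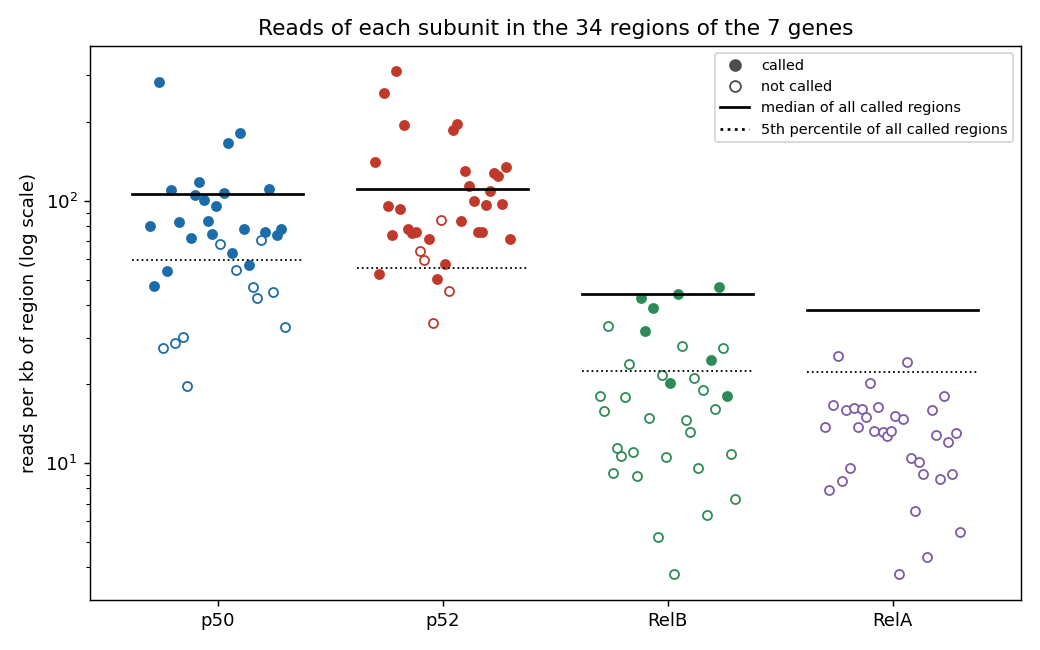
Reads per kb of region (log axis) of each merged subunit in the 34 regions, with filled points for regions called for that subunit and open points for regions not called. Solid and dotted bars are the median and the 5th percentile of all regions called for the subunit, and no RelA value reaches the RelA median of 38.4.

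NOTCH1, a receptor whose gain-of-function mutations drive T cell leukemia, had 3 regions, each called for p50 and p52 and not for RelB. The third of them by position, chr9:138590466-138591246, lies 30331 bp upstream of the TSS and outside the gene. It had the highest fold enrichment of all 34 regions for both subunits, 56.7 for p50 and 52.2 for p52, values above those of 98.8% of all p50 regions and 95.4% of all p52 regions. Fold enrichment compares the pooled ChIP replicates with input where a peak is highest. By pileup, by either column of replicate signals and by reads per kb, it remained the highest for p50, whereas the RBPJ region 177248 bp upstream was the highest for p52. The region had 222 p50, 200 p52, 26 RelB and 13 RelA reads. After scaling each subunit by its reads in all regions, the log2 ratio of p50 to p52 was 0.28 (95% exact interval -0.0011 to 0.56).

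The region within the NOTCH1 gene, chr9:138552733-138554405, begins 5730 bp downstream of the TSS and had more p52 than p50. Its fold enrichment was 22.1 for p50 and 37.4 for p52, and it held 134 p50 reads and 234 p52 reads, a log2 ratio of -0.67 (-0.99 to -0.36). The p52 signal values, a score that the peak table gives separately for each replicate on a scale it does not name, were 172.7 and 1156 in this region, and the p50 values 434.0 and 450.8. The replicates of p52 therefore spanned those of p50. The remaining NOTCH1 region, 5639 bp upstream, was weak, with a fold enrichment of 11.7 for p50 and 11.8 for p52, 66 p50 reads and 73 p52 reads.

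NOTCH2, the second receptor, had a single region, chr1:120298569-120299115, which lies inside the gene and was called for p52 only. The closest TSS belonged to another gene, 57928 bp away. The fold enrichment of p52 was 9.84, above 9.46% of all p52 regions. The region held 52 p52 reads, 15 p50 reads, 14 RelA reads and 5 RelB reads, and the log2 ratio of p50 to p52 was -1.66 (-2.60 to -0.81). Of the receptors, NOTCH1 had p50 and p52 in 3 of 3 regions, and NOTCH2 had p52 without a call for p50.

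RBPJ had 7 regions, and 316 of the 8450 genes with a region, or 3.74%, had 7 or more. These counts take regions up to 1 Mb away, and only 2 of the 7 lay within 100 kb of the gene body or TSS. p52 was called in 7 of 7, p50 in 4 and RelB in 1. All but the last of the 7 lay upstream of the gene, between 30697 and 193020 bp from the TSS, and the last overlapped the TSS. No test compared the upstream regions with the TSS region.

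In the 6 upstream regions of RBPJ the scaled reads of p52 exceeded those of p50, against 58.3% of all regions farther than 1 kb from a TSS. The second region by position, chr4:25752429-25753182, lies 177248 bp upstream and held 235 p52 reads, 83 p50 reads, 12 RelA reads and 8 RelB reads. Its fold enrichment was 46.8 for p52 and 18.7 for p50, and with 311.7 p52 reads per kb it was the densest p52 region of the 34. The log2 ratio of p50 to p52 was -1.37 (-1.75 to -1.004). The fourth, chr4:25785805-25786603 at 143827 bp upstream, held 155 p52 reads and 66 p50 reads with a fold enrichment of 31.1 and 10.3. A further 3 upstream regions were called for p52 alone, with 21 to 22 p50 reads against 57 to 84 p52 reads. Over the 6 regions the log2 ratio ran from -1.80 to -0.32 with a median of -1.31. In 5 of them p50 was at least 2-fold below p52, against 14.0% of all regions and 17.2% of those farther than 1 kb from a TSS. Of these 5, 3 were called for p52 alone and so entered the table through p52, where a low ratio follows from the call. Of the 3 upstream regions called for both subunits, 2 were at least 2-fold below p52, against 7.43% of all regions called for both. RelB was not called in any of the 6 and had 8 to 19 reads.

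The region over the RBPJ start, chr4:25929618-25931217, was called for p50, p52 and RelB and had p50 and p52 reads in balance. It reached from 812 bp upstream to 787 bp downstream of the TSS. The region had 115 p50, 122 p52, 68 RelB and 24 RelA reads, and p50 was enriched 23.2-fold, p52 26.1-fold and RelB 14.2-fold. The log2 ratio of p50 to p52 was 0.05 (-0.33 to 0.42), outside the range of the 6 upstream regions. Over the whole table the median ratio was 0.95 in the 2989 regions within 1 kb of a TSS and -0.21 in those farther away. A higher ratio at a start is therefore not particular to RBPJ. The summits of p50, p52 and RelB lay 493, 500 and 516 bp upstream of the start, which is outside the 250 bases printed above, as far as the RefSeq start is the one used in the table. The RelB reads were 2-fold or more above p52 after scaling, with a log2 ratio of 1.10 (0.65 to 1.54). The RelB signal values of the replicates were 843.4 and 179.2, a deviation of 3.07 on the log2 scale from the usual shift between the columns, where 95% of all RelB regions were within 2.38.

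**Figure D2:**
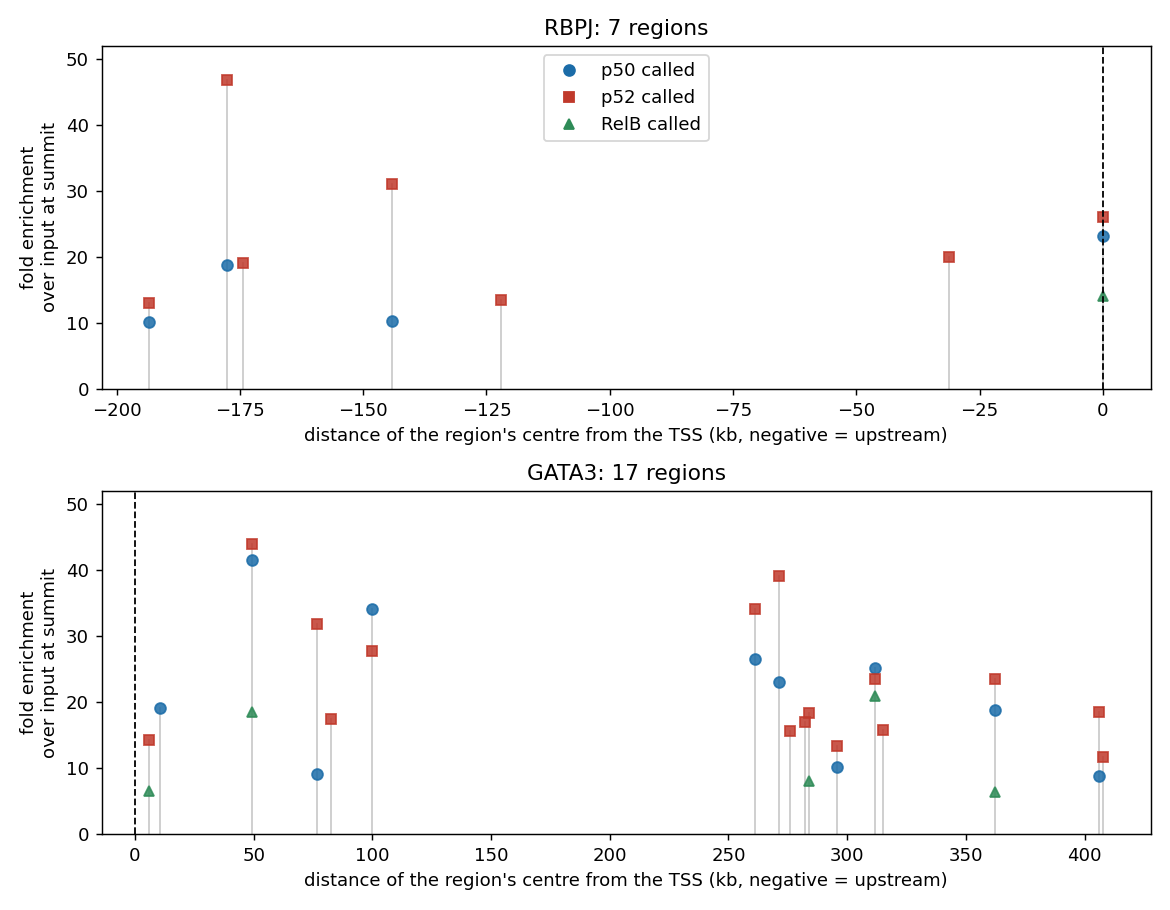
Fold enrichment over input at the summit (vertical axis) against the distance of each region's centre from the TSS in kb (horizontal axis, negative upstream, dashed line at the TSS) for the RBPJ and GATA3 regions; a point is drawn where the subunit was called. The RBPJ regions lie upstream or over the start with p52 in each. The regions assigned to GATA3 all lie downstream, while a region over its start was assigned to another gene and is not drawn.

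HES1, a basic helix-loop-helix repressor and classical Notch target, had 2 regions, both called for p50 and neither for p52. The region 64586 bp upstream, chr3:195271098-195272042, had a fold enrichment of 23.9 for p50 and 8.22 for RelB. It had 99 p50, 61 p52, 30 RelB and 19 RelA reads, a log2 ratio of p50 to p52 of 0.83 (0.35 to 1.31). The region that begins 1314 bp downstream of the start, chr3:195337942-195338545, overlaps the gene and had a fold enrichment of 16.4 for p50 with 71 p50 and 36 p52 reads. Its log2 ratio was 1.11 (0.51 to 1.73). The calls at HES1 were thus the opposite of those at NOTCH2. The p52 reads at HES1 were not absent: with 64.6 and 59.6 reads per kb both regions were above the 5% of called p52 regions with the fewest (55.6 reads per kb), as were 30.5% of all regions without a p52 call.

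HEY1, a related repressor and Notch target, had a strong region over its start and a weaker one upstream. The region over the start, chr8:80842149-80844297, reached from 1644 bp upstream to 504 bp downstream of the TSS and was called for p50, p52 and RelB. p50 was enriched 32.3-fold, p52 27.2-fold and RelB 15-fold, with summits 895, 900 and 880 bp upstream. The region had 217 reads of p50, 154 of p52, 84 of RelB and 35 of RelA. The log2 ratio to p52 was 0.63 (0.32 to 0.93) for p50 and 1.07 (0.67 to 1.46) for RelB. The second region, 9982 bp upstream, was called for p50 alone with a fold enrichment of 12.1 (32 p50 reads and 13 p52 reads).

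LEF1 had a region over its start and a distant one. The region over the start, chr4:109308002-109309888, reached from 861 bp upstream to 1025 bp downstream and was called for p50 and p52. Its fold enrichment was 15.1 for p50 and 10.9 for p52, above 41.9% of all p50 regions and 16.0% of all p52 regions. It had 141 p50, 95 p52, 41 RelB and 24 RelA reads, and the log2 ratio of p50 to p52 was 0.70 (0.31 to 1.09). Like the ratios at the starts of RBPJ and HEY1, this was below the median of 0.95 over all regions within 1 kb of a TSS. The summits of p50 and p52 lay 376 and 383 bp upstream. The p50 signal values of the replicates were 123.9 and 304.7 in this region. That is a deviation of 1.529 on the log2 scale from the usual shift between the columns, where 95% of all p50 regions were within 1.502. The second region, 187100 bp upstream of LEF1, was called for p50 alone with a fold enrichment of 9.16, although p50 had 36 reads there and p52 had 32, with a log2 ratio of 0.30 (-0.43 to 1.03).

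GATA3 carried 17 of the 34 regions. Only 18 of the 8450 genes with a region, or 0.213%, had 17 or more, where the median gene had 1 region and the highest number was 32. These counts, too, take regions up to 1 Mb away. p52 was called in 16 of the 17, p50 in 10 and RelB in 5. All 17 lay downstream of the GATA3 TSS, from 5311 to 407397 bp, and the first 2 by position touched the gene. A region over the GATA3 start was assigned to another gene whose TSS it also overlaps, so this layout depends on the assignment. The 17 regions fell into a group of 6 within 100 kb of the start and a group of 11 farther away. The gap between the groups was 160.4 kb and the median spacing 9.40 kb.

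The strongest GATA3 region was chr10:8184460-8187527, 47787 bp downstream of the TSS, where p50, p52 and RelB were called. Over 3068 bp it had 510 reads of p50, 570 of p52, 135 of RelB and 45 of RelA. p50 was enriched 41.5-fold, p52 44.0-fold and RelB 18.6-fold, above 93.9%, 91.8% and 88.6% of all regions called for the same subunit. The log2 ratio of p50 to p52 was -0.03 (-0.21 to 0.15). Farther out, the region at 311166 bp had the highest RelB enrichment of the 34 (21.0), with 25.2 for p50, 23.5 for p52 and 142 p50, 164 p52 and 60 RelB reads.

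In the GATA3 regions farther away p52 was called in 11 of the 11 and p50 in 6. In the 5 called for p52 and not p50, where a low ratio follows from the call, the log2 ratio of p50 to p52 ran from -1.34 to -0.31. In the 6 called for both it was below 0 in 6 of 6, against 49.9% of all regions called for both, but close to it, with a median of -0.40 and a range from -0.68 to -0.08. In the 6 nearer regions the ratio ran from -1.50 to 1.38 with a median of 0.18. The extremes of all 17 were in this nearer group. The region at 76423 bp held 161 p52 reads against 52 p50 reads, with a fold enrichment of 31.9 and 9.06, a log2 ratio of -1.50 (-1.98 to -1.04). The region at 10189 bp, inside the gene, was the only GATA3 region without p52, with 57 p50 reads against 24 p52 reads and a p50 enrichment of 19.1, a log2 ratio of 1.38 (0.67 to 2.13). For comparison, regions farther than 1 kb from any TSS had a median of -0.21 over the whole table.

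The call and the reads went apart in the first GATA3 region, 5311 bp downstream and inside the gene. It was called for p52 (fold enrichment 14.3) and RelB (6.63) and not for p50, yet held 109 p50 reads and 91 p52 reads. The log2 ratio was 0.39 (-0.02 to 0.81), and its 68.6 p50 reads per kb were above those of 11.4% of all regions called for p50. Of the 11 member regions without a p50 call, 2 had more p50 reads per kb than the lowest 5% of called p50 regions, as had 30.9% of all regions without a p50 call.

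Over all 34 regions the scaled reads gave 3 at least 2-fold higher for p50, against 20.7% of all regions, and 8 at least 2-fold lower, against 14.0%. The 3 were the HES1 region near the start, the upstream HEY1 region and the GATA3 region at 10189 bp, none of them called for p52. The 8 were 5 at RBPJ, the NOTCH2 region and 2 at GATA3, and 3 of these were called for both subunits. The 95% exact interval, which covers counting error only, excluded equal shares in 23 regions, in 7 toward p50 and in 16 toward p52. At GATA3 9 regions were toward p52 and 2 toward p50, and at RBPJ 5 and 0. In regions called for only 1 of p50 and p52 the direction can follow from the call. The share of all regions was not counted, so these numbers do not set the genes apart. Each subunit is a merge of its replicates here, so these ratios have no replicate error.

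RelB reads were 2-fold or more above p52 in 2 of the 34 regions, against 12.3% of all regions, and 2-fold or more below in 12, against 21.2%. The 2 were the regions over the starts of RBPJ and HEY1. Among all regions within 1 kb of a TSS, 635 of 2989 reached this limit. The lowest ratio was in the RBPJ region 177248 bp upstream, with 8 RelB reads against 235 p52 reads, a log2 ratio of -2.93 (-4.16 to -1.93).

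**Figure D3:**
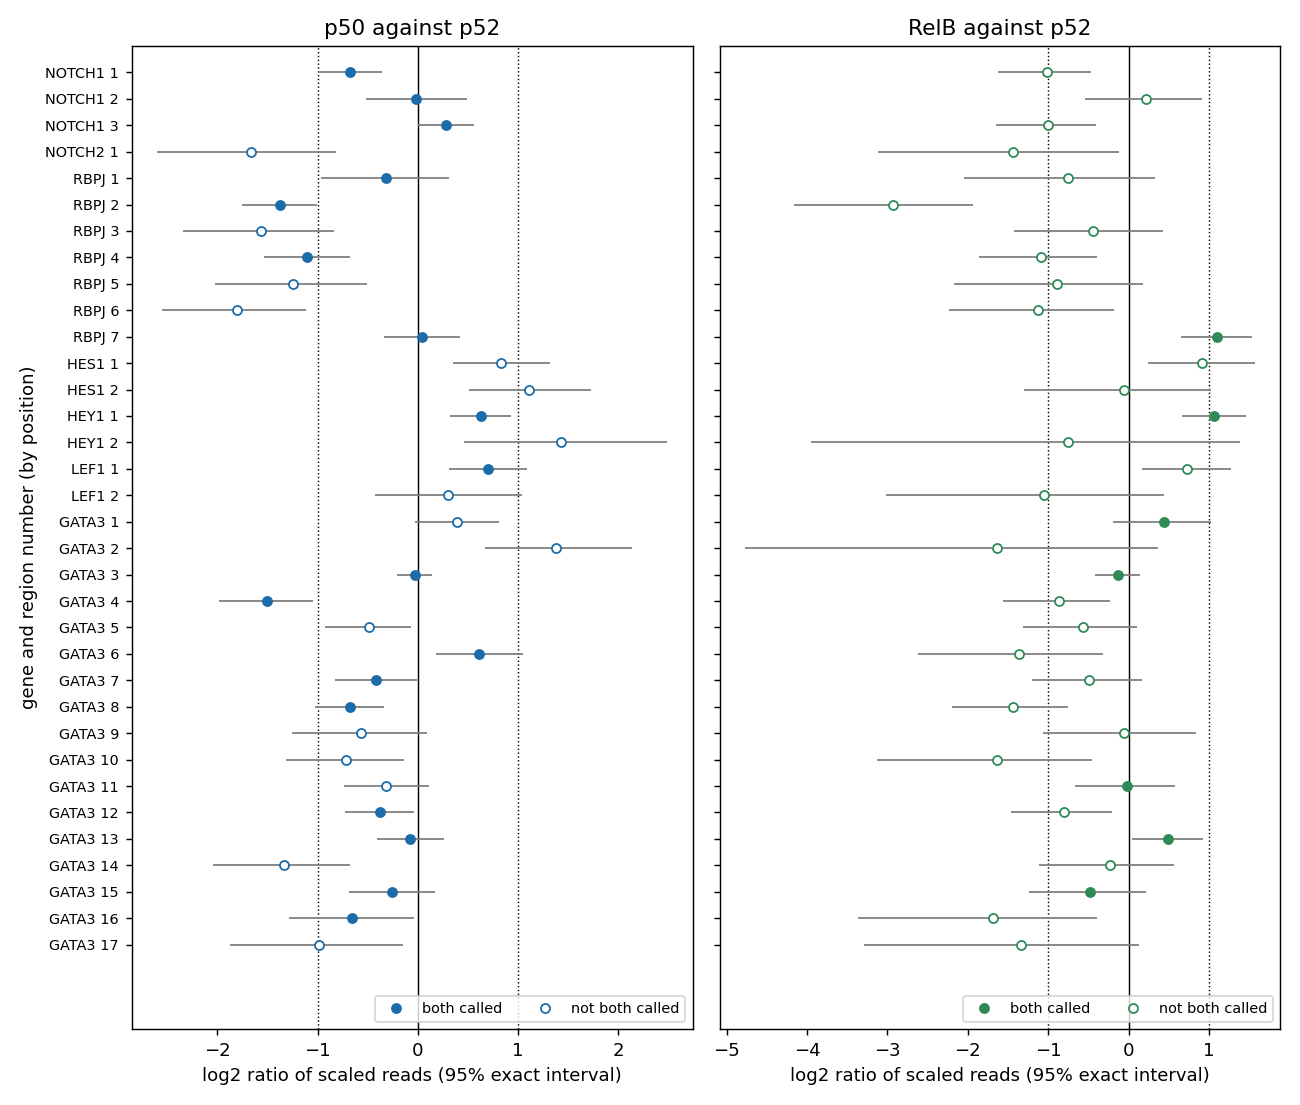
Log2 ratio of scaled reads of p50 to p52 (left) and of RelB to p52 (right) in each of the 34 regions, numbered by position within each gene, with 95% exact intervals for counting error; dotted lines mark the 2-fold limits and filled points are regions called for both subunits. The RBPJ regions 2 to 6 lie below the lower p50 limit, and the RBPJ region 7 and HEY1 region 1 are above the upper RelB limit.

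The replicate signal values allow a test of p50 against p52 in the 18 member regions called for both. limma was fitted on log2 signal values of all 7643 such regions, with 2 columns per subunit and Benjamini-Hochberg adjustment over all of them. Among the members, 3 of 18 were lower for p50, against 8.24% of all regions tested, and 0 were higher, against 6.54%. At an unadjusted p under 0.05 there were 4 of 18, against 30.8% of all regions tested. The RBPJ region 177248 bp upstream had p50 signal values of 503.1 and 385.5 and p52 values of 1099 and 1843, a log2 difference of -1.87 ± 0.40 (SE) after median centring with a limma adjusted p of 0.0066. The RBPJ region 143827 bp upstream had 239.9 and 236.6 for p50 and 385.2 and 1017 for p52, a difference of -1.57 ± 0.50 and a limma adjusted p of 0.039. The GATA3 region at 76423 bp had 193.6 and 151.4 for p50 and 874.3 and 726.6 for p52, a difference of -2.39 ± 0.53 and a limma adjusted p of 0.0072. Both centred p52 values were above both centred p50 values in 7 of the 18 regions, these 3 and GATA3 regions 7, 8, 12 and 16, which did not pass the test. How often this order occurs among all 7643 regions was not counted, so it cannot be read as particular to these genes.

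The other 15 regions did not pass the test. In 10 of the 18 the centred values of p50 and p52 overlapped, among them the regions over the starts of RBPJ, HEY1 and LEF1. For these the log2 differences were 0.23 ± 0.53, -0.22 ± 0.50 and 0.29 ± 0.60 (SE), each smaller than its SE. The strongest region, upstream of NOTCH1, had 1911 and 1447 for p50 and 675.7 and 1736 for p52. There both centred p50 values were above both p52 values, with a difference of 0.44 ± 0.33 and a limma adjusted p of 0.39. Before centring, column 2 at the median region was 0.852 times column 1 for p50, 1.97 times for p52 and 1.78 times for RelB. p52 had 2 antibodies, whereas p50 and RelB had 1 each, and the part of the antibody in these shifts was not tested. Leaving out p52 column 1 ended the call of the GATA3 region (limma adjusted p = 0.10), and leaving out any single column ended that of the RBPJ region at 143827 bp (limma adjusted p of 0.081 to 0.20), where the difference stayed between -1.76 and -1.38 and the SE rose to between 0.60 and 0.70, while the RBPJ region at 177248 bp kept its call without any of the 4 columns.

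**Figure D4:**
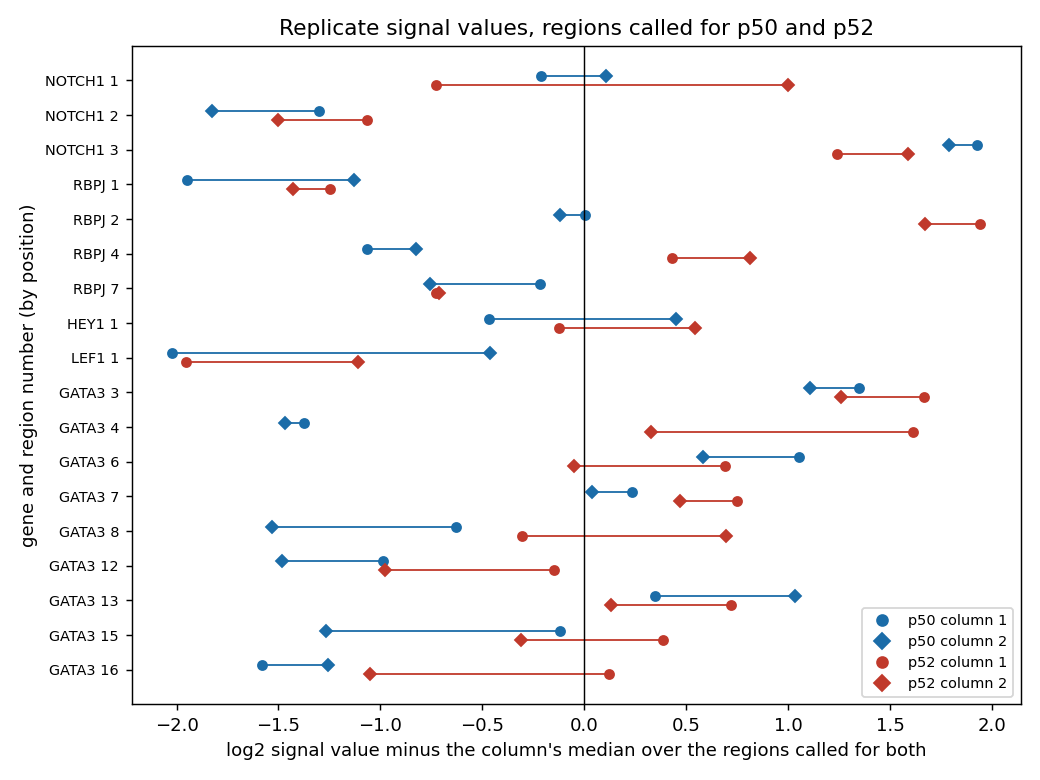
Log2 signal value minus the column's median over the 7643 regions called for p50 and p52, for the 18 member regions called for both, with circles for column 1 and diamonds for column 2 of each subunit. The p52 values lie apart from and above the p50 values in RBPJ regions 2 and 4 and in GATA3 regions 4, 7, 8, 12 and 16, of which the first 3 passed the test, and the values overlap in RBPJ region 7, HEY1 region 1 and LEF1 region 1.

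RelB against p52 could be tested in the same way in 7 member regions out of 3200. By limma with Benjamini-Hochberg adjustment 0 were higher, against 3.16% of all tested, and 0 were lower, against 0.594%, while 2 of 7 had an unadjusted p under 0.05, against 23.0%. The log2 difference was 1.37 ± 0.56 (SE) in the GATA3 region at 311166 bp, 1.39 ± 0.60 at the HEY1 start and 1.98 ± 0.98 at the RBPJ start, with limma adjusted p of 0.19, 0.21 and 0.25. Both RelB values were above both p52 values in 5 of the 7 regions after centring, and the share over all 3200 regions was not counted. Without RelB column 2 the log2 difference was 1.87 at the HEY1 start and 3.66 at the RBPJ start. These values rest on RelB column 1 alone. At the RBPJ start that column held 843.4, whereas the column left out held 179.2.

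Other genes of the pathway could be followed only where the study's gene lists pair an Ensembl identifier with a name, which was the case for 6 of the 55 looked up. JAG1, a ligand, had 2 regions, of which p50, p52 and RelB were each called in 1, with a highest enrichment of 13.8 for p50 and 17.1 for p52. The receptor-cleaving protease ADAM10 had 1 region and ADAM17 had 2, with at most 11.4 for p50. The γ-secretase subunits APH1A and APH1B had 0 regions in the table. TCF7, a relative of LEF1, had 6 regions, called for p50 and p52 in 6 of 6, for RelB in 5 and for RelA in 1, with a highest enrichment of 49.0 for p50 and 60.9 for p52. At LEF1 the highest enrichment was 15.1, in 2 regions.

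The genes most like GATA3 and RBPJ were found from the numbers of regions in each of the 15 combinations of subunits. For GATA3 the nearest was TNFAIP3, an inhibitor of NF-κB signaling, with 18 regions and a Euclidean distance of 2.24 between the counts. p50 was called in 11 of them, p52 in 17, RelB in 4 and RelA in 1. For RBPJ 5 genes had the same counts (distance 0), among them BRUNOL4, an RNA-binding protein, with 7 regions. The other nearest genes were not paired with a name.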

How the data were processed

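ChIP-seq of p50, p52, RelA and RelB (2 replicates each) and of input (6 libraries) was analysed from the authors' table of union regions. Per the study's methods, Bowtie placed the reads on hg18, only unique placements were kept, duplicates were dropped with SAMtools and each library was sampled down to 10000000 reads. CASAVA is also listed in the submitters' processing notes. The deposited read counts are whole numbers per region and merged subunit, without normalization, and summed to 315151 to 1810792 per subunit. The deposited fold enrichment is a ratio and the deposited pileup a coverage signal, both at the summit. The authors' IDR is a fraction and their FDR a q-value, with a threshold of 0.05 for each. The deposited signal values are a score per replicate, and the table does not tell which replicate is which column. The authors gave each region its nearest gene and TSS from Ensembl version 54, up to 1 Mb away. TSS positions were derived from the deposited distances.

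Reads of a region were compared as log2 ratios scaled by each subunit's reads in all regions, with Clopper-Pearson intervals at 95% for counting error. Log2 signal values were centred on column medians and tested with limma 3.58.1 (trend, Benjamini-Hochberg, threshold 0.05), which was tested on simulated data. Promoter words were searched in the 250 upstream bases of RefSeq promoters. Members and lists were chosen with earlier results of these data known. By rule, full values were given for regions within 1 kb of a member's TSS, for the strongest p50 and p52 region of each gene and for RelA regions. Gene names came from the rule of selection and from the study's gene lists, which paired 1132 of 8450 identifiers. The study calls its ChIP replicates biological. Nothing in the labels says that they came from separate cultures, so p-values measure the spread between these libraries. Alternatives were stricter thresholds, other scalings, other assignments and leaving out columns. The sequence of the regions, which needs the hg18 genome, was not analysed here. Python 3.11.15 was used.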

Additional observations from a re-analysis of the deposited data

Results flagged for a closer look

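The region chr10:8135194-8137778 was not counted among the 34, yet it spans the GATA3 start derived from the table's own distances, from 1479 bp upstream to 1105 bp downstream. The table assigns it to another Ensembl gene, whose TSS it also overlaps, so it was outside the members, though inside the counts over all regions, and it carried signal over input. It was called for p50 with a fold enrichment of 24.1 and for p52 with 33.9, and not for RelB or RelA. The p50 and p52 summits lay 384 and 381 bp downstream of the GATA3 start. It held 204 p50, 194 p52, 42 RelB and 36 RelA reads, and the log2 ratio of p50 to p52 was 0.20. With it, the regions near the genes numbered 35 and those within 1 kb of a member's start 4. It was found after the values were seen.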

How the results depend on the processing

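Of 126 recomputed values 92 stayed the same in direction and within 1.5 times, or on the same side of the threshold, and 0 reversed. The 12 among them on calls per subunit say nothing of stability, since every member call already lay inside the stricter limits of IDR, FDR and fold enrichment. Sharing of p50 and p52 and the count near a TSS moved by less than 1.5 times. Within 100 kb of the gene body or TSS, 17 of the 34 regions remained, with 6 at GATA3 instead of 17 and 2 at RBPJ instead of 7. With another measure than fold enrichment, the strongest p50 region was the same in 3 of 6 genes by signal value column 1 and in 2 by reads per kb. The strongest p52 region of all was at RBPJ rather than NOTCH1 by pileup, by both signal columns and by reads per kb. A 1.5-fold limit gave 13 regions lower and 7 higher for p50, against 8 and 3. Leaving out each signal column gave 1 to 2 members lower, against 3, for p50 and, over all regions, 119 to 384 higher and 268 to 393 lower. limma without trend gave 338 lower over all regions. For RelB against p52, leaving out a column gave 0 to 2 members higher, and 27 to 628 higher and 0 to 472 lower over all regions. Quantile normalization gave 31 higher and 7 lower. The lone column is then assumed to vary like the other subunit. Where a count moved, the cause was not tested beyond the wider or narrower limit itself. No paired analysis was possible because the columns do not tell which replicate they hold.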
